A study of Mus musculus with 6 samples.

Results

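The genes that encode glutamate and GABA receptor subunits were examined in neural stem/progenitor cells sorted from the subgranular zone (SGZ) of the mouse hippocampus. Members were taken by symbol: AMPA (Gria), delta (Grid), kainate (Grik), NMDA (Grin) and metabotropic (Grm) glutamate receptor genes, and GABA-A (Gabr) and GABA-B (Gabbr) receptor genes. They number 47 of the 55471 genes of the table, and 40 of them had a mean normalized count of at least 10 over the 6 libraries, 25 of 26 glutamate and 15 of 21 GABA receptor genes. RNA came from 3 libraries of non-transgenic controls (NTG) and 3 of 3xTg mice, a model of Alzheimer's disease in which mutant human amyloid precursor protein and tau transgenes are driven by a Thy1 promoter beside a mutant presenilin 1. Both groups were on a B6129SF2/J background, carried the Nestin-CreERT2;ROSA26-EYFP reporter and received tamoxifen, which switches on YFP in cells with an active Nestin promoter and in all their progeny. YFP-positive cells were sorted at postnatal day 35, 10 days after tamoxifen. NTG mice were kept as an independent colony, so that genotype and colony cannot be told apart. Neither the number nor the sex of the animals behind each library is given, and p-values measure only the spread between these libraries.

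Glutamate opens AMPA, kainate and NMDA receptors, which are tetrameric cation channels, and acts more slowly through metabotropic receptors coupled to G proteins. GABA opens GABA-A receptors, which are pentameric chloride channels, and activates GABA-B receptors, which are G-protein-coupled dimers of Gabbr1 and Gabbr2. In the SGZ, ambient GABA reaches stem cells and immature neurons before they receive glutamatergic synapses, and it depolarizes immature cells. Radial glia-like stem cells share with astrocytes the machinery that takes up and senses glutamate.

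Subunit identity sets what these receptors do, and the AMPA family shows how little sequence this can take. The glutamine/arginine site lies in the pore loop. Its codon in the genome encodes glutamine in all 4 AMPA genes, and in Gria2 RNA it is edited to arginine, which makes channels that hold Gria2 nearly impermeable to calcium. The stretch around that codon is given as coding strand from GENCODE M21 transcripts on GRCm38, with the codon in capitals, because the share of Gria2 among the AMPA genes is one of the results. Counts per gene carry no information on editing.
Gria1: ggggccttcatgCAGcaaggatgtgac
Gria2: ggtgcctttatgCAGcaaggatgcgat
Gria3: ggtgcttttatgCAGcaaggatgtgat
Gria4: ggtgcctttatgCAAcaaggatgtgac

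The codon lies in exon 11 of 16 at chr11:57243094-57243096 (plus strand) in Gria1, in exon 11 of 16 at chr3:80706911-80706913 (minus strand) in Gria2, in exon 11 of 16 at chrX:41610265-41610267 (plus strand) in Gria3 and in exon 12 of 17 at chr9:4464137-4464139 (minus strand) in Gria4. Of the 27 bases, Gria1 shares 23, Gria3 25 and Gria4 24 with Gria2.

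Promoters are given for a pair of NMDA genes that stood far apart in level. Grin2c and Grin2d encode related NMDA subunits, but the level of Grin2c per kb was the second highest of all members and that of Grin2d ranked 34 of 47. The 250 bases before each RefSeq start site (GRCm38.p6, minus strand in both cases) are given with the GC box, GGGCGG or CCGCCC on the other strand, in capitals. This box is the sequence that Sp1-family factors bind. The promoter of Grin2c spans chr11:115267244-115267493 and that of Grin2d chr7:45866682-45866931.
Grin2c: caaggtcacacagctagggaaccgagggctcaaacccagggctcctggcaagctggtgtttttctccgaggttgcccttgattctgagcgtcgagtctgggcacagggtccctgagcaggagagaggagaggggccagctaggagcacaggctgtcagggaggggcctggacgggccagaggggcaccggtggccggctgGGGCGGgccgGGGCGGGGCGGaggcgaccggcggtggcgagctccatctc
Grin2d: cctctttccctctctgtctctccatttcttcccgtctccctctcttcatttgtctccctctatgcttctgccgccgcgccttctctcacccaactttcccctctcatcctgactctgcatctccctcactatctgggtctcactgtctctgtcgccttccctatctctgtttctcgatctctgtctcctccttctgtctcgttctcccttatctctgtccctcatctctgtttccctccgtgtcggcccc

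In Grin2c 3 GC boxes begin 50, 40 and 35 bases before the start, the last pair overlapping at their ends, and in Grin2d no GC box was found in this window. The windows stand before unlike starts. That of Grin2c adjoins the gene's end in GENCODE M21 (chr11:115267243). That of Grin2d lies inside the gene, which spans chr7:45831883-45878378, so that the sequence before its outermost start was not examined. The box was present in 10756 of 32851 promoters of this length (32.7%) and in 18 of the 39 promoters that belong to 32 members, some with several starts. These are letters in a reference sequence, and binding was not measured.

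Libraries held 32731794 to 42576455 assigned reads in NTG and 53063475 to 81800375 in 3xTg, so that every 3xTg library was deeper than every NTG library. The 3xTg replicate 1 stood apart from its group, with a score of 15.03 on the leading principal component (48.5% of variance) against 51.6 and 42.9, and NTG scored -51.0 to -27.7. The labelled cell type was checked against its markers. All 16 neural stem and radial glia markers were detected, with a summed normalized count of 796140 to 958750, and none was called between the groups (median log2 fold change -0.04). Markers of other cells were present as well. The sum of 12 astrocyte markers ranged from 2177400 to 3140900, that of 10 oligodendrocyte markers from 306850 to 661150, that of 10 oligodendrocyte precursor markers from 42587 to 98301 and that of 15 mature neuron markers from 15361 to 21029. In such bulk samples fewer cells of a type and less RNA per cell cannot be told apart. None of the 12 astrocyte, 15 mature neuron, 13 interneuron or 15 progenitor and neuroblast markers was called, whereas 3 of 12 endothelial, 2 of 9 pericyte and smooth muscle, 1 of 10 oligodendrocyte precursor and 1 of 12 microglia markers were lower in 3xTg. Of all tested genes 1.67% were called lower and 1.13% higher. Mature neuron markers lay below 0 in 13 of 15 cases (median log2 fold change -0.35), endothelial markers in 12 of 12 (-0.76) and pericyte and smooth muscle markers in 9 of 9 (-1.22). Without 3xTg replicate 1, 3 stem, 4 mature neuron, 1 interneuron, 9 endothelial, 8 pericyte, 2 microglia and 1 oligodendrocyte precursor markers were called lower, and 5 progenitor and neuroblast and 1 oligodendrocyte markers higher. More of all tested genes were called in that fit as well, 5.74% lower and 5.14% higher. The part of these cells in the receptor values was not tested.

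Receptor RNA in these cells was dominated by a few genes. Levels were compared as normalized counts per kb of merged exon, which allows genes of different length to be set side by side. Grm3, a Gi-coupled metabotropic receptor of group II, had the highest level, a mean of 10720 per kb, and Grin2c, an NMDA subunit, followed at 9331 per kb. Together they held 67.6% of the summed level of all 47 genes, and with Gabbr1, the ligand-binding subunit of the GABA-B receptor, at 2814 per kb, 77.1%. Grm3 and Grin2c lay at the 99.3 and 99.2 percentiles of level per kb among 18650 tested genes with a known length. Their ranges overlapped and Grm3 exceeded Grin2c in 4 of 6 libraries, so that they were not ordered beyond their spread. Grin2c, Gabbr1, Gria2 (1290 per kb) and Gabrb1 (888.5 per kb) followed each other without overlap between libraries. Further down, Grid1 and Grik2 also followed each other without overlap, whereas most neighbours in the order overlapped. When the longest protein-coding transcript was taken as the length, a choice made after the data were seen, Grm3 and Grin2c held 60.0% and the first 4 places were the same. Gabrb1 (895 per kb) was then in place 7, behind Gabrg1 (1414) and Grik5 (1053).

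**Figure D1:**
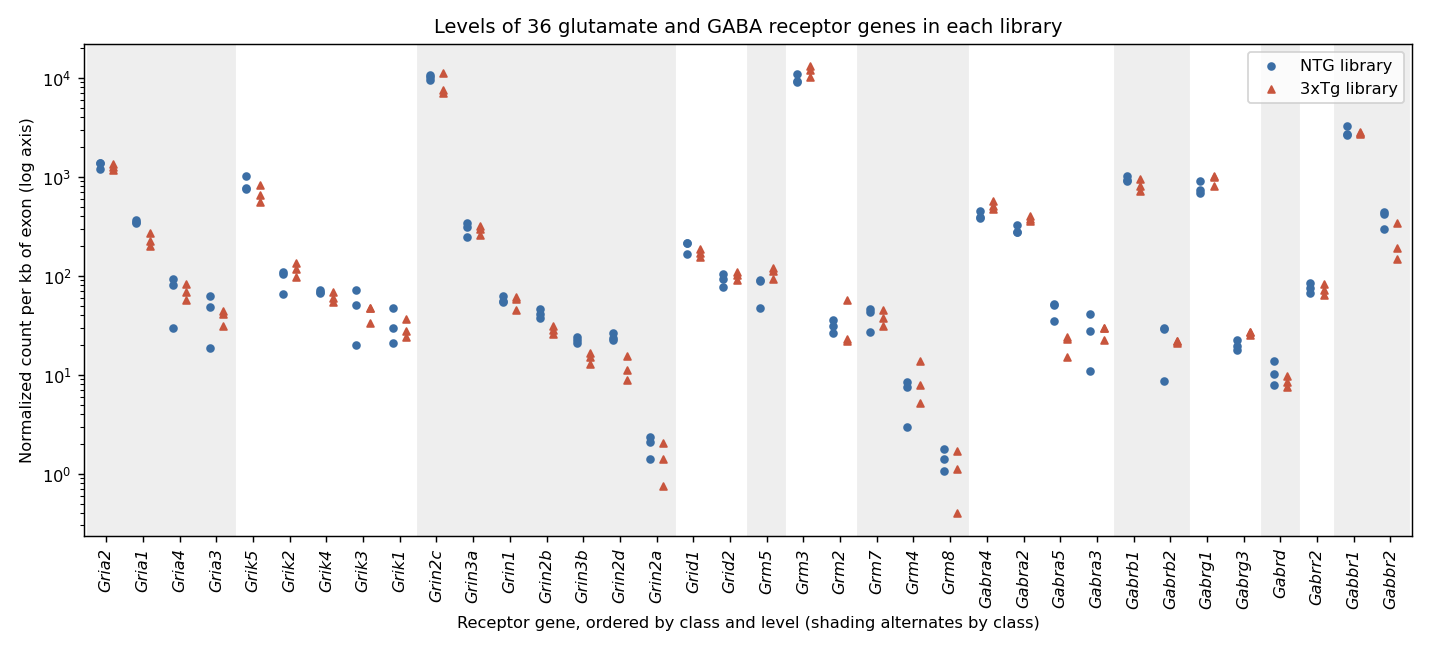
Normalized count per kb of exon (log axis) of 36 of the 40 receptor genes with a mean of at least 10, in each of 3 NTG libraries (circles) and 3 3xTg libraries (triangles), ordered by class and by level within a class. Grm3 (mean 10720 per kb) and Grin2c (9331) stand above Gabbr1 (2814) and Gria2 (1290), and all other members have means under 900.

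At the other end, Gabra6, Gabrp and Gabrr3 had no read in any library, which allows at most 3 reads over all 6. Grm6, the receptor of retinal ON bipolar cells, had 2 reads, both in NTG replicate 2. The remaining members under the filter were Gabrr1 with 14 reads, Gabre with 21 and Gabrq with 69, and none of the 7 was tested.

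The question put to these genes was whether receptor RNA differed between 3xTg and NTG cells at an age before amyloid and tau pathology. Of the 40 members tested, 0 were called higher and 1 was called lower in 3xTg (limma adjusted p under 0.05 and log2 fold change beyond 0.5), where 1.13% and 1.67% of all 18664 tested genes were called higher and lower. At an unadjusted p under 0.05, 4 members were higher and 6 lower, against 12.1% and 11.4% of all genes. The 3 NTG and 3 3xTg values did not overlap for 9 members (22.5%), 4 higher and 5 lower, against 27.7% of all tested genes. The median log2 fold change of the members was -0.05, with a range of -1.13 to 0.56 and a median of 0.01 over all tested genes. In this fit these shares lie near the background in each case. DESeq2, the replicate block and removal of the GC trend each called a larger share of members lower than of all genes. The shares of all genes there were 4.26%, 2.41% and 1.65%, and the numbers of members are given in the last section. By class, 15 of 18 ionotropic glutamate receptor genes had a log2 fold change below 0 (11 to 16 under the alternatives that tested all 18), beside 4 of 7 metabotropic, 5 of 13 GABA-A and both GABA-B genes.

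**Figure D2:**
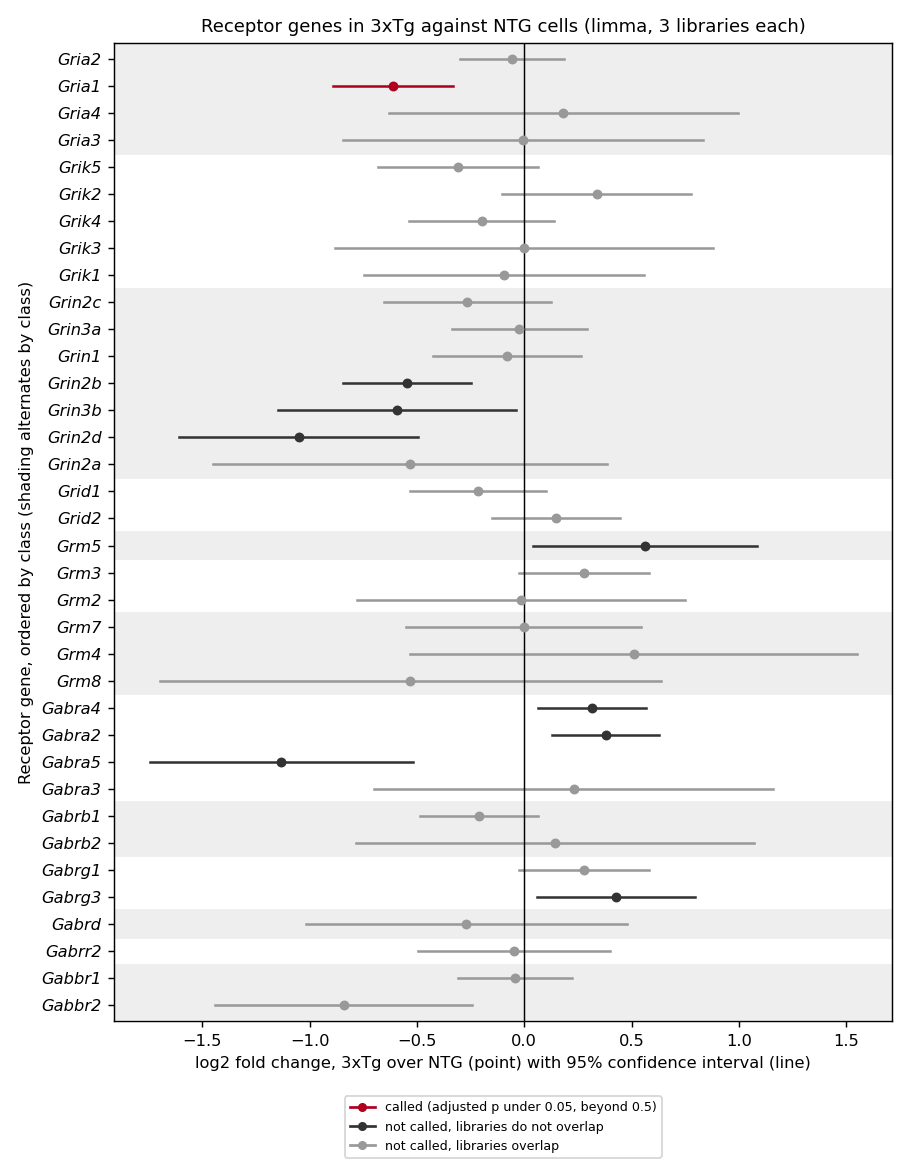
log2 fold change of 3xTg over NTG with its 95% confidence interval (limma, 3 libraries per group) for 36 of the 40 tested receptor genes, ordered by class. Gria1 (-0.61) is the only one called, the 7 NMDA genes all lie below 0 in this fit (5 of 7 once GC trends are removed), and the 3 genes farthest below 0 are Gabra5 (-1.13), Grin2d (-1.05) and Gabbr2 (-0.84).

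The gene that fell was Gria1, which encodes the AMPA subunit GluA1 and lies at chr11:57011387-57330244. Its normalized counts were 2196, 2076 and 2130 in NTG and 1217, 1366 and 1635 in 3xTg. All 3 NTG libraries agreed closely and lay above all 3 3xTg libraries, among which replicate 1 was the lowest. The mean was 2134 ± 60.5 in NTG and 1406 ± 212 in 3xTg (SD, n = 3 each), a log2 fold change of -0.61 (SE 0.13, 95% confidence interval -0.89 to -0.33, limma adjusted p = 0.0367). The call was kept in edgeR (adjusted p = 0.0349) and DESeq2 (adjusted p = 0.00109), and lost on scaling by total reads (limma adjusted p = 0.0685), with sample weights (log2 fold change -0.48), and without NTG replicate 1, 2 or 3 or 3xTg replicate 2 (limma adjusted p = 0.128, 0.0864, 0.0542 and 0.148).

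Gria2, the most abundant AMPA gene, measured 21290, 21350 and 18710 in NTG and 18400, 20800 and 19750 in 3xTg, and the groups overlapped (log2 fold change -0.06, limma adjusted p = 0.783). With the GC trend removed Gria2 was at -0.36 (limma adjusted p = 0.0858), beside -0.66 for Gria1, and at -0.41 (limma adjusted p = 0.0425) when 3xTg replicate 1 was left out as well. Gria3 and Gria4 had group means of 380 to 438 and intervals that reached beyond 0.8 in size, so that a change of that size was not detectable in them. Per kb, Gria2 made up 73.6%, 73.4% and 75.0% of the AMPA sum in NTG and 80.3%, 79.2% and 77.0% in 3xTg, with no overlap. Gria1 made up 19.5%, 18.4% and 21.97% in NTG and 13.7%, 13.4% and 16.4% in 3xTg. In the exact two-sided permutation test both shares gave p = 0.1, the smallest that 3 against 3 allows, and an adjusted p of 0.217 over the 13 subunit shares tested. A share within a library does not depend on the scaling of the library, but GC trends were not removed from these shares. These shares rest on the same Gria1 counts as the call above.

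**Figure D3:**
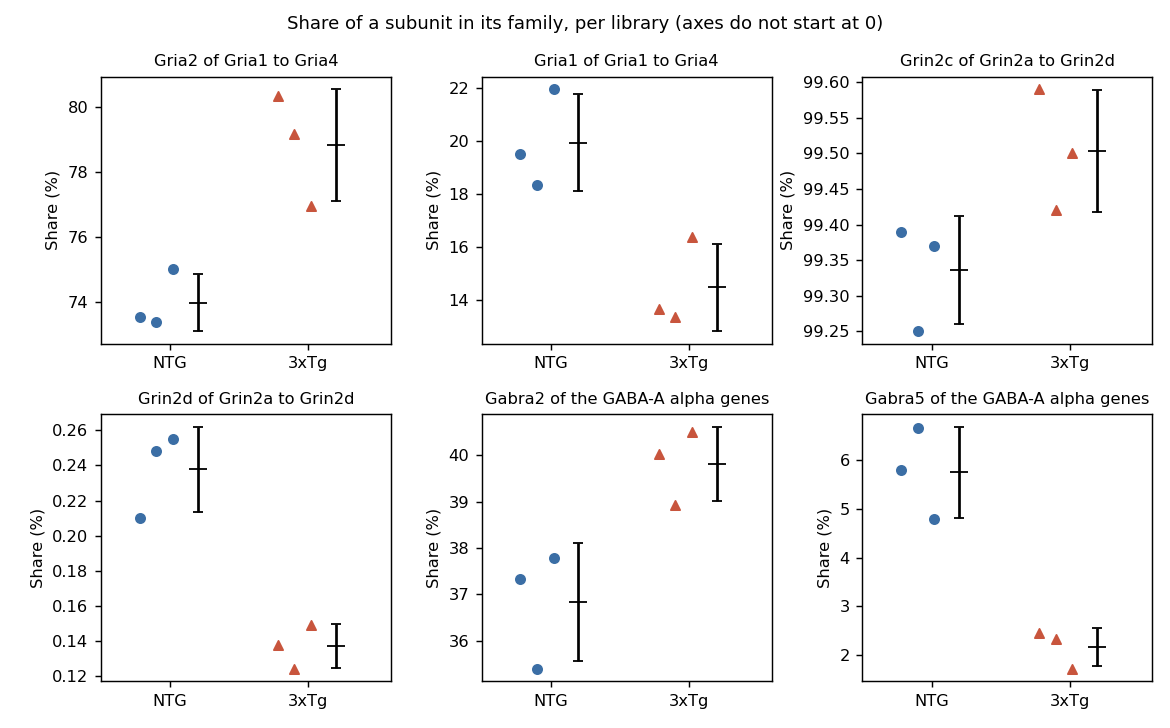
Share (%) of a subunit in the summed level per kb of its family, for each NTG library (circles) and 3xTg library (triangles), with the mean and SD beside them and axes that do not start at 0. Gria2 took 73.4% to 75.0% in NTG and 77.0% to 80.3% in 3xTg, and Gabra5 4.80% to 6.67% in NTG and 1.72% to 2.46% in 3xTg.

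NMDA receptors need Grin1, the glycine-binding subunit, and pair it with Grin2 subunits, which bind glutamate, or with the Grin3 subunits, which bind glycine. All 7 NMDA genes had a log2 fold change below 0 (median -0.53), although none passed the test. That median was -0.27 with the GC trend removed, -0.18 without 3xTg replicate 3 and -0.13 with the GC trend removed and without 3xTg replicate 1. Against 50.8% of all tested genes above 0, this direction is a description of 7 genes that share libraries. Removing each library's GC trend put 2 of the 7 above 0, scaling by total reads put 1 there, and so did leaving out NTG replicate 1 or 2 or 3xTg replicate 2 or 3.

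Grin2d, a subunit of embryonic brain and interneurons, measured 149.8, 157.1 and 174.5 in NTG and 102.7, 59.06 and 74.34 in 3xTg. No library of one group reached the other (log2 fold change -1.05, SE 0.25, limma adjusted p = 0.056, and -0.70 with the GC trend removed). Grin2b, the main Grin2 subunit of immature neurons, measured 1019, 1136 and 924.4 in NTG and 697.2, 774.5 and 634.2 in 3xTg. Its groups were apart as well (log2 fold change -0.55, SE 0.13, limma adjusted p = 0.0628), and with the GC trend removed it was called, at -0.67 (limma adjusted p = 0.0144). Grin3b measured 79.57, 68.72 and 73.95 in NTG against 42.4, 49.5 and 55.02 in 3xTg (log2 fold change -0.59, SE 0.25, limma adjusted p = 0.19, and -0.27 with the GC trend removed). Its value is uncertain, since 32.1% of its exon bases overlap Tmem259 on the opposite strand, a gene with a mean of 3661, and the library kit does not mark strand. Antisense genes overlap 13.5% of the exon bases of Grin1 and 9.66% of those of Grin2d, at means of only 10.8 and 9.59. The obligatory Grin1 (555 ± 42.5 in NTG, 528 ± 79.6 in 3xTg, SD, n = 3 each) and Grin3a (3682 ± 631 and 3601 ± 378) had log2 fold changes of -0.08 and -0.02.

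Grin2c, which astrocytes and cerebellar granule cells are known to express, measured 53610, 47530 and 51390 in NTG and 56140, 35780 and 37560 in 3xTg. The NTG values were close together, whereas 3xTg replicate 1 was the highest of all libraries and the other 3xTg libraries the lowest (log2 fold change -0.27, SE 0.17, limma adjusted p = 0.375). The summed astrocyte markers ran likewise, at 3140900 in 3xTg replicate 1 against 2177400 and 2206600 in replicates 2 and 3 and 2488000 to 3069700 in NTG. Apoe was the largest term of that sum, at 1407000 in 3xTg replicate 1 against 780800 and 869200 in replicates 2 and 3. Single markers differed. Gjb6 ran as Grin2c did, whereas Aqp4 was highest of all in 3xTg replicate 2 (61760) and Ndrg2 in 3xTg replicate 3 (112600). The part of astrocyte markers in the levels of Grin2c was not tested. In every library Grin2c supplied 99.2% to 99.6% of the Grin2 sum per kb, and it exceeded its partner Grin1 by 123.5 to 192.9 times per kb of merged exon and by 56.0 to 87.5 times per kb of the longest protein-coding transcript. The share of Grin2d was 0.210% to 0.255% in NTG and 0.124% to 0.149% in 3xTg, again without overlap (exact permutation p = 0.1, adjusted p = 0.217), and Grin2a, the subunit of mature synapses, had a mean of at most 34.9 in either group.

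Among kainate genes, Grik5, which needs partner subunits to form a channel, was the most abundant, at 3954, 3869 and 5320 in NTG and 4311, 2898 and 3423 in 3xTg. The groups overlapped (log2 fold change -0.31, limma adjusted p = 0.287), and with the GC trend removed the value was -0.02. Of the delta receptors, which bind cerebellins at synapses, Grid1 was the higher per kb, at 1283, 983.1 and 1284 in NTG and 1113, 921.9 and 1006 in 3xTg (log2 fold change -0.22, limma adjusted p = 0.375). The other kainate and delta genes had log2 fold changes between -0.20 and 0.34, and none passed the test.

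Metabotropic genes showed 0 calls. Grm3 measured 33150, 27400 and 28050 in NTG and 39830, 36910 and 30800 in 3xTg. Only 3xTg replicate 3 fell within the NTG range (log2 fold change 0.28, SE 0.14, limma adjusted p = 0.247). Grm5, a Gq-coupled receptor of group I that astrocytes express in early postnatal life, measured 933.8, 901.7 and 483.6 in NTG and 1143, 1215 and 944.9 in 3xTg. The groups did not overlap, but 3xTg replicate 3 exceeded NTG replicate 1 only narrowly (log2 fold change 0.56, SE 0.23, limma adjusted p = 0.188). Without NTG replicate 3, the lowest NTG library, it was 0.25, and 0.35 with the GC trend removed. In group III, whose members act mostly as presynaptic autoreceptors in neurons, Grm7 had the highest level per kb, at 252.8, 274.9 and 158.3 in NTG and 182.8, 268.3 and 223 in 3xTg (log2 fold change -0.00, limma adjusted p = 0.996). Grm4 measured 44.47, 50.49 and 17.75 in NTG and 81.97, 30.94 and 46.84 in 3xTg, a log2 fold change of 0.51 with a 95% confidence interval of -0.53 to 1.55. Grm2 and Grm8 had log2 fold changes of -0.01 and -0.53 with overlapping groups, and Grm2 was highest in 3xTg replicate 3, at 276.6 against 108.6 to 175.3 elsewhere.

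GABA-A genes went both ways: 8 of 13 tested members had a log2 fold change above 0 and 5 below, with 0 calls and a median of 0.23. With the GC trend removed that median was 0.01, and without NTG replicate 3 it was -0.05. Subunits with low GC content tended to be the higher ones here, as they were across the genome. The 20 members with a GC content of at most 47.4% had a median log2 fold change of 0.16 and the other 20 one of -0.15, and across 5 equal classes of all tested genes the median ran from 0.25 at the lowest GC content to -0.20 at the highest.

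A GABA-A receptor is assembled from alpha and beta subunits, which form the GABA site, and usually a gamma subunit, which anchors it and carries the benzodiazepine site together with alpha. The genes that led these classes in SGZ cells, Gabra4, Gabra2, Gabrg1 and Gabrb1, lie side by side within 1.398 Mb on chromosome 5. Gabra2 measured 2511, 2102 and 2094 in NTG and 2874, 3092 and 2744 in 3xTg, and Gabra4 2777, 2357 and 2411 in NTG and 3054, 3451 and 2889 in 3xTg. In both genes all 3xTg libraries lay above all NTG libraries, with log2 fold changes of 0.38 (SE 0.11, limma adjusted p = 0.0978) and 0.32 (SE 0.11, limma adjusted p = 0.143). With the GC trend removed these were 0.09 and 0.09. Gabrg1 measured 7106, 5831 and 5367 in NTG and 8008, 7850 and 6328 in 3xTg (log2 fold change 0.28, limma adjusted p = 0.243), and -0.03 with the GC trend removed. Gabrb1, on the opposite strand, measured 14070, 12450 and 12950 in NTG and 13130, 11260 and 9903 in 3xTg. Here the sign was the other one (log2 fold change -0.21, limma adjusted p = 0.32, and -0.47 with the GC trend removed), and neither Gabrg1 nor Gabrb1 was separated between the groups.

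The summed level per kb of the 6 alpha genes was 795 ± 78.9 in NTG and 955 ± 77.3 in 3xTg (SD, n = 3 each), the only one of 13 class sums without overlap (exact permutation p = 0.1, the smallest possible, and adjusted p = 0.52). Gabra5, the alpha subunit of extrasynaptic receptors in hippocampal neurons, ran against that sum. It measured 152.1, 154.3 and 103.5 in NTG and 68.78, 71.99 and 45.35 in 3xTg, so that the highest 3xTg library stood below the lowest NTG library. The log2 fold change was -1.13 (SE 0.28, 95% confidence interval -1.75 to -0.52, limma adjusted p = 0.0612), the largest in size among the members, and with the GC trend removed it was called, at -1.22 (limma adjusted p = 0.0422). Of the alpha sum per kb Gabra5 made up 5.81%, 6.67% and 4.80% in NTG and 2.46%, 2.33% and 1.72% in 3xTg, while Gabra2 took 35.4% to 37.8% in NTG and 38.9% to 40.5% in 3xTg. Both shares gave an exact permutation p = 0.1 and an adjusted p = 0.217.

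Gabrg3, which lies beside Gabra5 on chromosome 7, had a fold change of the other sign. It measured 265.6, 210.4 and 230.7 in NTG and 326, 321.7 and 298.9 in 3xTg, without overlap (log2 fold change 0.43, SE 0.17, limma adjusted p = 0.166, and 0.22 with the GC trend removed). Gabrd, the subunit of extrasynaptic receptors in mature granule neurons, was low, at 39.79, 22.44 and 29.58 in NTG and 28.26, 24.19 and 21.56 in 3xTg. Gabrr2, a rho subunit, measured 177.9, 140.2 and 156.8 in NTG and 172.4, 134.4 and 152.4 in 3xTg (log2 fold change -0.05).

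**Figure D4:**
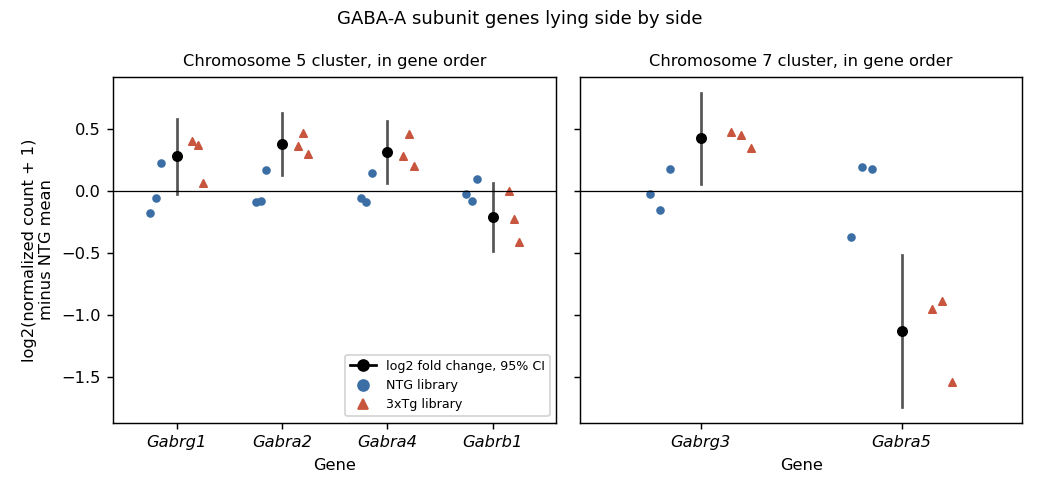
log2(normalized count + 1) minus the NTG mean for GABA-A subunit genes in their order on chromosome 5 and on chromosome 7, with each NTG library (blue circles), each 3xTg library (triangles), and the log2 fold change with its 95% confidence interval (black). On chromosome 7, Gabra5 (-1.13) and its neighbour Gabrg3 (0.43) lie on opposite sides of 0.

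Of the GABA-B receptor, Gabbr1 measured 25560, 20310 and 20850 in NTG and 22010, 20820 and 21540 in 3xTg (log2 fold change -0.04, 95% confidence interval -0.31 to 0.22). Gabbr2, which couples the dimer to G proteins and carries it to the surface, measured 2968, 1979 and 2825 in NTG and 2270, 998.9 and 1268 in 3xTg. The groups were not separated, since 3xTg replicate 1 lay within the NTG range (log2 fold change -0.84, SE 0.27, limma adjusted p = 0.116). Without that library it was -1.18 (limma adjusted p = 0.0102). Gabbr1 exceeded Gabbr2 per kb by 6.36 to 8.84 times in NTG and by 8.35, 17.95 and 14.6 times in 3xTg, again with overlap (exact permutation p = 0.2).

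A group of receptors varied more among the NTG libraries than between the groups. NTG replicate 3 had the lowest value of all 6 libraries in 16 of 40 members, against 0 to 9 for each other library. The same count was not made over all tested genes, so that it is not shown to be particular to the receptors. That library also had the lowest score on the leading principal component (-51.0). The 5 members farthest below the mean of the other NTG libraries there, picked after their values were seen, were Gabrb2 (54.72 against 186), Grik3 (177.5 against 555), Gabra3 (42.89 against 134), Gria3 (183.4 against 545) and Gria4 (187.8 against 545). In 3xTg the same genes measured 133.1 to 139.4, 296.8 to 423, 88.56 to 117, 303.4 to 434.2 and 361.8 to 515.2. Their standard errors on the log2 scale were 0.36 to 0.42, against a median of 0.22 over the members. The sum of oligodendrocyte precursor markers was also lowest in that library, 42587 against 73805 and 98301 in the other NTG and 57376 to 65826 in 3xTg, as was that of oligodendrocyte markers, 306850 against 601770 to 661150 elsewhere. The sum of mature neuron markers was lowest there too, 15361 against 18453 to 21029. Its largest term was Map2, at 7055 against 10640 to 12780. Snap25, Syn1, Nefm and Kcnq5 were also lowest in that library, and no other marker of that list was. Camk2a was highest there, at 569.4 against 293.7 to 471.2. The sum of ependymal and choroid plexus markers was highest there, 49185 against 9142.1 to 22953, with Ttr as its largest term. Oligodendrocyte precursors are known to express AMPA and kainate receptors. The part of these cells in the receptor values was not tested.

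**Figure D5:**
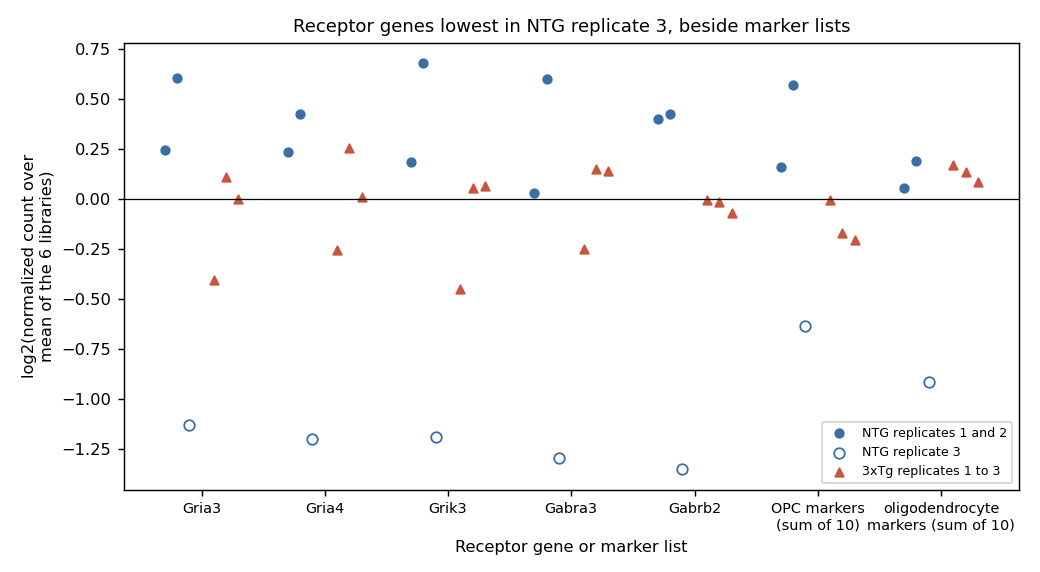
log2 of the normalized count over the mean of the 6 libraries for 5 receptor genes and for the summed markers of oligodendrocyte precursors (OPC) and oligodendrocytes, in NTG replicates 1 and 2 (filled circles), NTG replicate 3 (open circle) and the 3xTg replicates (triangles). NTG replicate 3 is the lowest point in all 7 columns.

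Genes that act beside the receptors were taken from lists of partners, supply and effectors. Of 41 glutamate receptor partners (auxiliary subunits, scaffolds and synaptic organizers) 0 were called in either direction, with 29 below 0 and a median log2 fold change of -0.16, which was -0.03 with the GC trend removed. The farthest from 0 was Dlgap2, a postsynaptic scaffold, at 70.21, 60.3 and 51.77 in NTG and 33.92, 20.25 and 20.07 in 3xTg (log2 fold change -1.29, limma adjusted p = 0.0632). Of 24 GABA receptor partners 1 was called higher and 0 lower, with a median of 0.05. The gene that rose was Trak2, a kinesin adaptor first described as a partner of GABA-A receptors and best known for mitochondrial transport, at 761.8, 894.7 and 662.6 in NTG and 1403, 1456 and 1468 in 3xTg. Its groups stood far apart (log2 fold change 0.91, SE 0.13, limma adjusted p = 0.00703).

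Genes that make, carry and clear the transmitters gave 0 calls among 30, with a median of 0.11. The glutamate transporters Slc1a3 and Slc1a2 had log2 fold changes of 0.14 and 0.15. The vesicular transporters Slc17a6 and Slc17a7 had values of opposite sign. Slc17a6 measured 177.9, 211.8 and 170.1 in NTG and 256.3, 483.1 and 550.2 in 3xTg (log2 fold change 1.13, limma adjusted p = 0.057), and Slc17a7 930.3, 677.4 and 708.5 in NTG and 714.1, 269.4 and 231.2 in 3xTg (log2 fold change -1.11, limma adjusted p = 0.118). In both, 3xTg replicate 1 was the 3xTg library nearest to NTG. The chloride importer Slc12a2 had a mean of 8450 over the libraries and the exporter Slc12a5, which rises as neurons mature, one of 186.6. Neither was called.

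Downstream kinases and immediate early genes, the transcripts that neuronal activity induces, gave 0 calls among 28, with a median of -0.05. Of these, 13 lay above 0 and 15 below. Their summed level was 71890 in 3xTg replicate 1, 152120 and 158290 in 3xTg replicates 2 and 3, and 75078 to 100770 in NTG. Its largest terms were Fos and Egr1, with means of 34540 and 28650 over the libraries. Fos was at 16760, 56680 and 61190 in 3xTg and 18830 to 31380 in NTG (log2 fold change 0.71, SE 0.42, limma adjusted p = 0.326). Egr1 was at 16680, 46060 and 48140 in 3xTg and 17190 to 22010 in NTG (log2 fold change 0.72, limma adjusted p = 0.232). The list's gene farthest above 0 was Fosb, at 599.2, 2164 and 3246 in 3xTg and 588.7 to 788.7 in NTG (log2 fold change 1.22, SE 0.48, limma adjusted p = 0.172). Other immediate early genes differed. Arc was at 1107, 1377 and 1295 in 3xTg and 979.1 to 1373 in NTG (log2 fold change 0.06). Npas4, Junb and Nr4a1 had log2 fold changes of 0.00, 0.25 and 0.57. Immediate early genes also respond to tissue dissociation, whose part here was not tested.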

How the data were processed

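Of the series, all 3 NTG and 3 3xTg libraries were used. cDNA was made with SMART-Seq V4 and libraries with Nextera XT, without strand. HISAT2 was used by the authors for alignment to GRCm38 (mm10), featureCounts for counting per gene and DESeq2 for normalization, and the deposited signal values are these normalized counts (versions are not given in the sources used here). All values were whole reads times 1 factor per library, within 0.01 reads. Deposited columns of the authors' own comparison (fold changes, p-values, weights) were not used. The 3xTg and NTG libraries were compared with limma-trend (limma 3.58.1 under R 4.3.3) after log2(normalized count + 1) transformation, in 18664 genes whose mean was 10 or more, and p-values were adjusted over them by Benjamini-Hochberg. Fold changes on that scale understate changes of low genes. Calls needed an adjusted p under 0.05 and a log2 fold change beyond 0.5. edgeR 4.0.16 (quasi-likelihood) and DESeq2 1.42.0 were run on the recovered reads. Shares and class sums were compared by exact permutation. Merged exon lengths, GC content and positions came from GENCODE M21 (55230 of 55471 genes matched), promoters from RefSeq. Members, lists and alternatives were chosen with earlier results of these data known. Values in every library are given for members that were called or did not overlap, the highest per kb in each class and the 3 largest fold changes in each direction. Others were added where a result turned on them. Alternatives were the added count, filter, scaling, test, weights, replicate block, depth, GC trend, length and each library left out. Some members are counted but not reported here by name or drawn. The steps were tested on simulated data.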

Additional observations from a re-analysis of the deposited data

How the results depend on the processing

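No receptor gene was called higher in any of the 21 fits (at an unadjusted p under 0.05 limma gave 4 higher). The number called lower was 1, and became 0 with scaling by total reads (1.54% of all genes), 3 with the GC trend removed (1.65% of all genes), 5 with DESeq2 on recovered reads (4.26% of its 17216 genes), 6 with sample weights (7.54% of all genes), 4 with the replicate block (2.41%), 4 with the GC trend removed with replicate block (1.66%), 5 with the GC trend removed and without 3xTg replicate 1 (4.01%), and 0 to 5 when each library was left out, 5 without 3xTg replicate 1 (5.74% of all genes) and 0 when the library left out was NTG 1, NTG 2 or 3xTg 2. DESeq2 and the fit without 3xTg replicate 1 both called Gria1, Gabra5, Grin2b, Grin2d and Gabbr2. Gria1 was called in 15 of 21 fits, Gabra5 in 8, Grin2b in 7, Gabbr2 in 6 and Grin2d in 3, all lower. Replicate numbers are not shown to pair the libraries: correlations of the deviations of same-numbered libraries were 0.06, 0.20 and 0.04, and with the block Gria1, Gabbr2, Gabra5 and Grin2b were called. The median log2 fold change of the members was -0.22 without NTG replicate 3 and -0.22 to 0.031 over all libraries left out. The causes of these changes were not tested. Depth set a floor of 3 reads, or 1.69 to 4.44 normalized counts by library, which covers counting error only. Signs turned in several members. Without NTG replicate 3, Gabrb2 went from 0.14 in the main fit to -0.44, Gabra3 from 0.23 to -0.30 and Gria4 from 0.18 to -0.33. Gria3 went from -0.005 to 0.35 without NTG replicate 2. A further 5 genes whose fold changes were near 0 or small are given here. Grm7 was 0.015 with TMM scaling, 0.036 with total reads, 0.00596 with thinned reads, 0.033 with the GC trend removed and without 3xTg replicate 1, and -0.25 to 0.15 with a library left out. Gabbr1 was 0.044 with the GC trend removed, with or without the block, 0.0498 with the GC trend removed and without 3xTg replicate 1, and -0.106 to 0.0602 with a library left out. Gabrr2 was 0.0357 with the GC trend removed, with or without the block, and -0.138 to 0.0408 with a library left out. Gabrg1 was -0.0302 with the GC trend removed, with or without the block, and -0.19 with the GC trend removed and without 3xTg replicate 1. Grin2c was 0.0337 with the GC trend removed, with or without the block. Of the lists, glutamate receptor partners had 1 called higher with the GC trend removed, and 0 higher and 0 to 2 lower with a library left out. GABA receptor partners had 1 higher and 0 to 1 lower, supply genes 0 to 1 higher and 0 to 3 lower, and kinases and immediate early genes 0 to 5 higher and 0 to 4 lower, the upper ends without 3xTg replicate 1. In that fit 5.14% of all genes were called higher and 5.74% lower.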
